A study of Mus musculus with 11 samples.

Results

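The regulators of G protein signalling (RGS proteins) described here are 10 genes: Rgs1, Rgs2, Rgs3, Rgs4, Rgs5, Rgs10, Rgs14, Rgs16, Rgs18 and Rgs19. They were picked by symbol from the 24914 rows of the per-library count files, and all 10 were found. Whole kidneys of 129X1/SvJ mice aged 5.5 weeks were profiled by mRNA sequencing in 11 libraries. Col4a3-/- mice, a model of Alport syndrome in which a type IV collagen chain of the glomerular basement membrane is missing, received antimiR-21 (KO antimiR-21, n = 4), which is an oligonucleotide that blocks the small RNA miR-21, or PBS (KO PBS, n = 4). Col4a3+/- mice received PBS (HET PBS, n = 3). The labels give no wild-type group and no heterozygotes on antimiR-21, and do not say that each library came from its own animal, so p-values measure the spread between these libraries.

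RGS proteins bind the active alpha subunit of a heterotrimeric G protein and speed up its hydrolysis of GTP, which shortens the signal of the receptor that switched it on. In the kidney, receptors that act through such G proteins set the tone of vessels and glomerular pericytes, guide leukocytes and control tubular transport. Several small RGS genes are induced by the pathways they damp, and others mark a cell type, such as Rgs5 in pericytes and Rgs18 in platelets.

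Of the 10 genes, 6 lie on chromosome 1 (GRCm38, GENCODE vM21 annotation). Rgs2 (143999338 to 144004161), Rgs1 (144242296 to 144249242) and Rgs18 (144752683 to 144775435) sit on the minus strand within 776 kb. Rgs16 (153740349 to 153745468) is on the plus strand, and Rgs5 (169655501 to 169695813, plus strand) lies 45.7 kb from Rgs4 (169741477 to 169747642, minus strand). Rgs19 is on chromosome 2, Rgs3 on chromosome 4, Rgs10 on chromosome 7 and Rgs14 on chromosome 13. Of the 10, 0 were in joint loci, which are names with identical counts in every library. Only names with at least 50 counts over all libraries were compared, which left out Rgs1, and partial sharing of reads was not sought. The library kit does not mark strand, so reads of an overlapping antisense transcript could not be told apart.

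The promoter windows of 3 members on which the results turn are shown because Rgs16 had KO levels above every HET level and because Rgs2 and Rgs5 are the most abundant members. The sequences are from RefSeq (GRCm38.p6), run 5′ to 3′ on the gene's strand from 250 bases before to 50 bases after its start, and carry in capitals every TGACG (part of the cAMP response element, CRE) and GGGCGG (a GC box) on either strand. The windows are chr1:153740103-153740402 on the plus strand, chr1:144004100-144004399 on the minus strand and chr1:169655251-169655550 on the plus strand.
Rgs16: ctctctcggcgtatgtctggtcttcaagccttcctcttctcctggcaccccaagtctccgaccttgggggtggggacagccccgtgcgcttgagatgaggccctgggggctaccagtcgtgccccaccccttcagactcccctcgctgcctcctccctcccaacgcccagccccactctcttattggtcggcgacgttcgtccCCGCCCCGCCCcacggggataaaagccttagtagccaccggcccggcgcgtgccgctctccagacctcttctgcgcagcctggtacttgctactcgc
Rgs2: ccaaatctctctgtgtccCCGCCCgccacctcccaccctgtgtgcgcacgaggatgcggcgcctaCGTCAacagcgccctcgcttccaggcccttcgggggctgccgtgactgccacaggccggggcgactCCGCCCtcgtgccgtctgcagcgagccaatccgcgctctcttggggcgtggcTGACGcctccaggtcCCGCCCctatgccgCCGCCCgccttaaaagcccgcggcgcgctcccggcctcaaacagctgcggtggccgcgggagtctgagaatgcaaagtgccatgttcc
Rgs5: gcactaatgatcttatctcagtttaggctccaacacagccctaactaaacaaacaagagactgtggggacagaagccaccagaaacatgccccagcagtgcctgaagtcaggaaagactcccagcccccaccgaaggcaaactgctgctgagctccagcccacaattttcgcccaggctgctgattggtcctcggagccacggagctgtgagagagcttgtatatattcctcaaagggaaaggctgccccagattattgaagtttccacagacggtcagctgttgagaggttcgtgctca
The Rgs16 window held 2 overlapping GC boxes, starting 47 and 42 bases before the start site (positions -47 and -42), and no TGACG. The Rgs2 window held TGACG at -185 and -67 and GC boxes at -232, -119, -52 and -38. The Rgs5 window held neither motif. TGACG was present in 20.8% and GGGCGG in 35.7% of all 32851 promoter windows. In the 10 windows available for 7 members, the whole CRE TGACGTCA (1.79% of all windows), TGANTCA (7.81%), TTCNNNGAA (8.30%) and the CArG box by its name (1.63%) were found in 0. CACGTG (7.15% of all windows) and GGGNNTTCC (5.82%) were found for Rgs19, and TATAAA (13.6%) for Rgs3 and Rgs4. These matches describe the letters of the windows and no binding was measured.

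The libraries held 17.9 to 39.7 M counts each, and levels are given in CPM (counts scaled to library size). Kidney tubule markers summed to 16500 to 19400 CPM in KO antimiR-21, 16300 to 18200 CPM in KO PBS and 18400 to 19000 CPM in HET PBS, with 0 of 9 at 0. Col4a3, the targeted gene, shared its counts with its neighbour Col4a4 and so does not check the genotype. Ddx3y, a helicase gene of the Y chromosome, was at 89.7 to 109 CPM in 1 of 4 KO antimiR-21, 2 of 4 KO PBS and 2 of 3 HET PBS libraries, and the other 6 had at most 0.193 CPM. The labels give no sex. These 5 and 6 libraries are called with and without Y-linked reads.

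Per kb of exon, Rgs5, which restrains G protein signals in pericytes and vascular smooth muscle, was the highest member at 10.1 ± 1.19 CPM per kb in KO antimiR-21, 9.70 ± 0.841 in KO PBS and 9.27 ± 2.66 in HET PBS (SD, n = 4, 4 and 3). Rgs2, which acts on Gq and lowers the response to vasoconstrictors, followed at 8.81 ± 1.84 CPM per kb in KO antimiR-21, 8.51 ± 1.34 in KO PBS and 6.78 ± 1.13 in HET PBS, and in each group it differed from Rgs5 by less than the larger SD. In HET PBS the middle of the order was Rgs4 (2.55 ± 1.08 CPM per kb), Rgs19 (1.94 ± 0.213), Rgs14 (1.92 ± 0.609), Rgs3 (1.41 ± 0.482) and Rgs10 (1.31 ± 0.129), and neighbours in that order differed by less than the larger of their SDs. Rgs18 (0.127 ± 0.0440 CPM per kb), Rgs16 (0.122 ± 0.0146) and Rgs1 (0.0177 ± 0.0124) were far below. The length used was the union of exons over all annotated transcripts, and the order depends on it. For Rgs1 that union (6947 bases) covers the whole gene, which lowers its value per kb. In KO libraries Rgs16 was above Rgs18, at 0.453 ± 0.0698 CPM per kb with antimiR-21 and 0.610 ± 0.292 with PBS. It stayed below the next member, Rgs3, at 1.48 CPM per kb in both KO groups.

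**Figure D1:**
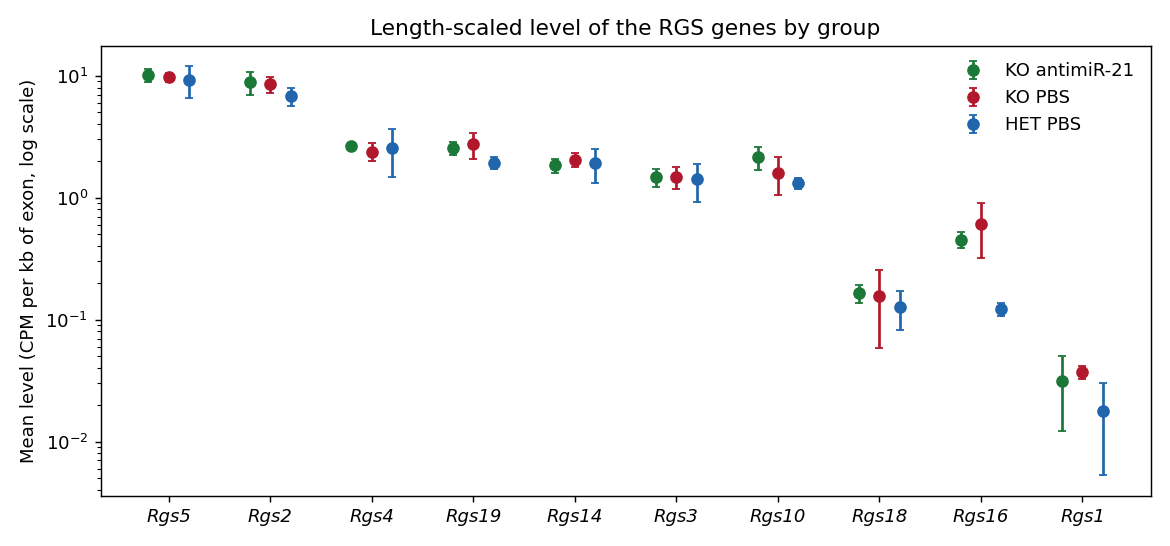
Mean level of each RGS gene in CPM per kb of exon (log axis) in KO antimiR-21, KO PBS and HET PBS kidneys, with bars of 1 SD over libraries. Rgs5 and Rgs2 lie highest and Rgs1 lowest, and Rgs16 is the gene whose KO points lie farthest above its HET PBS point.

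Rgs16 is an inducible member that acts on Gi and Gq and responds to inflammatory signals and to the daily clock. Its level was 1.26, 1.11, 0.982 and 0.883 CPM in KO antimiR-21 replicates 1 to 4, 2.39, 1.43, 0.991 and 0.893 CPM in KO PBS replicates 1 to 4 and 0.300, 0.247 and 0.311 CPM in HET PBS replicates 1 to 3. Every KO library was above every HET library, whether treated or not, and KO PBS replicate 1 was highest of all. The group means were 1.06 ± 0.162 CPM in KO antimiR-21, 1.42 ± 0.682 CPM in KO PBS and 0.286 ± 0.0343 CPM in HET PBS. These are few reads: the summed counts were 79.5 in KO antimiR-21, 126 in KO PBS and 23 in HET PBS, which gives pooled levels of 1.05 CPM (95% exact Poisson interval 0.841 to 1.32), 1.40 CPM (1.16 to 1.66) and 0.280 CPM (0.177 to 0.420). The intervals cover counting error only. Rgs16 passed the low-count filter through its KO libraries, since 4 of 4 KO antimiR-21, 4 of 4 KO PBS and 0 of 3 HET PBS libraries held 10 or more counts.

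The comparison of KO PBS with HET PBS asks what the loss of Col4a3 changes. The fitted log2 difference of Rgs16 was 2.29 (SE 0.391). The set was proposed with this contrast known, in which Rgs16 had the 4th smallest unadjusted p, so its difference is a description and carries no test. Without KO PBS replicate 1 it was 1.92. Within the libraries without Y-linked reads the log2 difference of means was 2.32 (2 KO PBS against 1 HET PBS), and within those with them it was 1.49 (2 against 2). Between KO antimiR-21 and HET PBS the fitted difference was 1.87 (SE 0.398), with 1.62 within libraries without Y-linked reads (3 against 1) and 1.41 within those with them (1 against 2).

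The comparison of KO antimiR-21 with KO PBS asks which levels move when miR-21 is blocked in knockouts. The log2 difference of Rgs16 was -0.42 (SE 0.318), the groups overlapped, and without KO PBS replicate 1 it was -0.05, so that library sets the size of the value. In bulk tissue, fewer cells of a type and less RNA per cell cannot be told apart, here and in every level below.

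Rgs1, which damps chemokine receptors in lymphocytes, and Rgs18, a platelet and megakaryocyte regulator, stayed too low for the test. Rgs1 had 0.328, 0.332, 0.0982 and 0.107 CPM in KO antimiR-21, 0.298, 0.225, 0.242 and 0.272 CPM in KO PBS and 0.215, 0.110 and 0.0444 CPM in HET PBS. All 4 KO PBS values (4.5 to 7 counts) lay above the 3 HET PBS values (1 to 5 counts), while KO antimiR-21 overlapped both groups. The closest KO PBS and HET PBS values were 0.225 and 0.215 CPM. Of the loci tested, which leave out Rgs1, 3.54% were higher in KO PBS without overlap. The pooled level was 0.212 CPM (95% exact Poisson interval 0.121 to 0.344) in KO antimiR-21, 0.261 CPM (0.170 to 0.396) in KO PBS and 0.122 CPM (0.0583 to 0.224) in HET PBS, so the intervals of all 3 groups overlapped. Rgs18 had 0.383, 0.276, 0.295 and 0.375 CPM in KO antimiR-21, 0.459, 0.301, 0.0441 and 0.466 CPM in KO PBS and 0.343, 0.165 and 0.267 CPM in HET PBS, and the groups overlapped. Its pooled levels were 0.331 CPM (0.214 to 0.489) in KO antimiR-21, 0.321 CPM (0.215 to 0.462) in KO PBS and 0.243 CPM (0.149 to 0.376) in HET PBS, a difference not detectable at this depth. The 10 platelet and megakaryocyte markers summed to 240 to 322 CPM in KO antimiR-21, 233 to 289 CPM in KO PBS and 261 to 307 CPM in HET PBS, with 1 to 4 of them at 0 in a library. Most of each sum was the joint Gp1ba/Slc25a11 locus, whose reads cannot be given to Gp1ba alone. That locus was at 219 to 304 CPM in KO antimiR-21, 209 to 271 CPM in KO PBS and 239 to 284 CPM in HET PBS. Among the other markers Itga2b, an integrin subunit gene, ran from 10.2 to 16.5 CPM and Itgb3 from 3.37 to 8.08 CPM. Pf4, which encodes platelet factor 4, ran from 0.348 to 0.849 CPM, Gp9 and Ppbp had at most 0.172 and 0.0776 CPM, and Gp6 was at 0 in every library. Their part in the level of Rgs18 was not tested.

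Rgs10 and Rgs19 were the other members whose KO antimiR-21 libraries all lay above HET PBS. Rgs10, a small Gi regulator of macrophages and microglia, had 2.87, 4.42, 3.19 and 4.33 CPM in KO antimiR-21, 3.95, 2.93, 2.09 and 1.90 CPM in KO PBS and 2.23, 2.03 and 2.47 CPM in HET PBS. The KO antimiR-21 mean was highest, but that group overlapped KO PBS, whose libraries straddled the HET PBS values. Its fitted log2 difference was 0.27 (SE 0.273) for KO PBS against HET PBS, 0.45 (SE 0.251) for KO antimiR-21 against KO PBS and 0.72 (SE 0.275) for KO antimiR-21 against HET PBS. The second value was uneven by Y-linked status, at 0.01 without Y-linked reads (3 against 2) and 1.09 with them (1 against 2). Without KO PBS replicate 1 the first value was 0.04 and the second 0.68.

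Rgs19, which binds Gi alpha subunits on membranes of the trafficking pathway, had 5.85, 5.41, 6.60 and 4.92 CPM in KO antimiR-21, 8.17, 6.19, 4.74 and 5.43 CPM in KO PBS and 4.83, 4.24 and 3.89 CPM in HET PBS. One KO PBS library fell inside the HET PBS range, and no KO antimiR-21 library did. The fitted differences were 0.51 (SE 0.200) for KO PBS against HET PBS, -0.11 (SE 0.184) for KO antimiR-21 against KO PBS and 0.40 (SE 0.200) for KO antimiR-21 against HET PBS. With Y-linked status as a term the last was 0.25, and it was 0.29 without Y-linked reads (3 against 1) and 0.27 with them (1 against 2).

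Rgs2 had 41.3, 30.7, 30.4 and 25.4 CPM in KO antimiR-21, 35.5, 34.6, 26.1 and 27.3 CPM in KO PBS and 28.3, 20.2 and 25.3 CPM in HET PBS. The means were 31.9 ± 6.69 CPM in KO antimiR-21, 30.9 ± 4.85 CPM in KO PBS and 24.6 ± 4.13 CPM in HET PBS, and both KO groups overlapped HET PBS. The fitted differences were 0.33 (SE 0.179) for KO PBS and 0.38 (SE 0.179) for KO antimiR-21, each against HET PBS, and 0.05 (SE 0.164) between the KO groups. With Y-linked status as a term, the difference between KO antimiR-21 and HET PBS was 0.22. It was 0.25 within libraries without Y-linked reads (3 against 1) and 0.17 within those with them (1 against 2).

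Rgs5 was level across groups, at 50.1, 41.7, 50.9 and 40.6 CPM in KO antimiR-21, 48.6, 45.6, 39.8 and 42.4 CPM in KO PBS and 55.9, 37.4 and 33.1 CPM in HET PBS. The HET PBS libraries spanned both ends of the KO range. Rgs4, a close relative of Rgs5 that acts in neurons and smooth muscle, averaged 8.15 ± 0.405 CPM in KO antimiR-21, 7.40 ± 1.25 CPM in KO PBS and 7.91 ± 3.35 CPM in HET PBS. Rgs3, which restrains Gi and Gq signals in many cell types, averaged 16.0 ± 2.71 CPM in KO antimiR-21, 16.0 ± 3.39 CPM in KO PBS and 15.3 ± 5.20 CPM in HET PBS. Rgs14, a scaffold that also binds Ras proteins and inactive Gi alpha, averaged 7.81 ± 1.07 CPM with antimiR-21 and 8.66 ± 1.12 CPM with PBS in the knockouts, and 8.15 ± 2.58 CPM in HET PBS. For these 4 genes the 3 fitted group differences ran from -0.15 to 0.14, each smaller than its SE, and for each gene the HET PBS libraries had the largest SD.

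**Figure D2:**
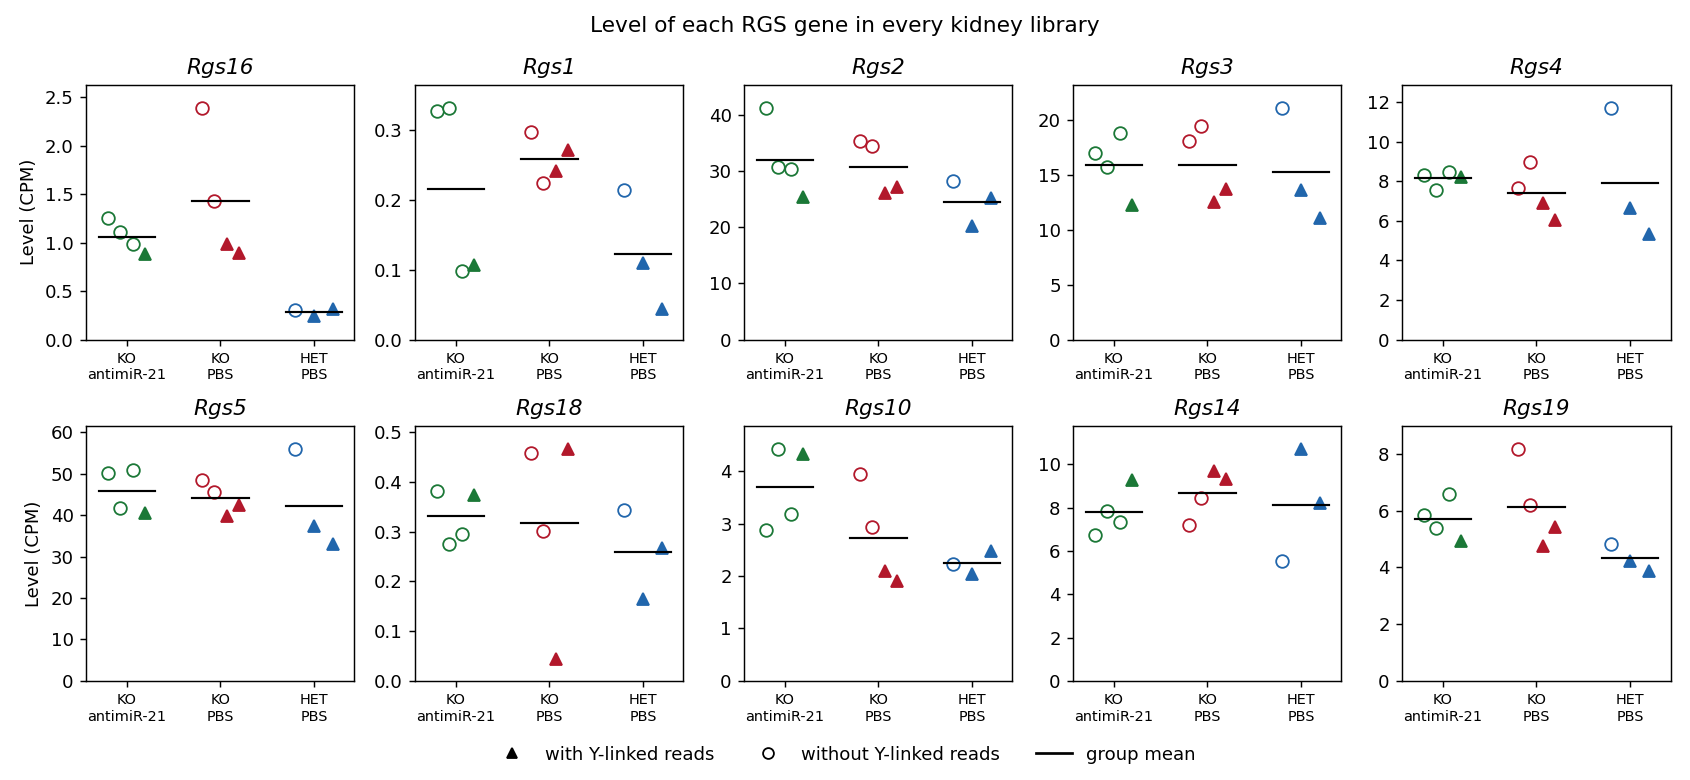
Level of each RGS gene in CPM (each axis from 0) in the 4 KO antimiR-21, 4 KO PBS and 3 HET PBS libraries, with black bars for group means and filled triangles for libraries with Y-linked reads. The 8 KO libraries have Rgs16 levels of at least 0.883 CPM and the 3 HET PBS libraries of at most 0.311 CPM, while Rgs3, Rgs4 and Rgs5 overlap between groups.

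Taken over the 8 members that passed the low-count filter, edgeR's quasi-likelihood test with Benjamini-Hochberg adjustment over 14380 loci called 0 in KO PBS against HET PBS, where it called 0% of all loci. At an unadjusted p under 0.05 it called 2 (Rgs16 and Rgs19), beside 6.94% of all loci. DESeq2 called 1 (Rgs16), beside 0.424% of 19324 loci, and limma-voom 0, beside 0% of 14380. The 19324 are all loci with counts, also any that DESeq2's own filter leaves without an adjusted p. Calls of Rgs16 rest on the values by which it was chosen, and on a filter that it passed through its KO libraries, so they are counts and no test of it. Between KO antimiR-21 and KO PBS edgeR called 0 members (0% of all loci) and 0 at an unadjusted p under 0.05 (8.21% of all loci). There DESeq2 called 0 members, beside 0.647% of its loci, and limma-voom 0, beside 0%. Between KO antimiR-21 and HET PBS edgeR called 0 members (0.00695% of all loci) and 2 at an unadjusted p (Rgs16 and Rgs10, beside 8.05%). There DESeq2 called 1 (Rgs16), beside 0.388% of its loci, and limma-voom 0, beside 0%.

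Group ranges did not overlap for 1 of the 8 in KO PBS against HET PBS (Rgs16, higher, beside 3.54% of all loci higher and 6.75% in either direction), for 0 in KO antimiR-21 against KO PBS (4.28%) and for 3 in KO antimiR-21 against HET PBS (Rgs10, Rgs16 and Rgs19, all higher, beside 3.91% of all loci higher and 5.99% in either direction). The median log2 difference of the 8 was 0.18 in KO PBS against HET PBS (7 of 8 positive, all loci -0.015), 0.02 in KO antimiR-21 against KO PBS (4 of 8, all loci 0.004) and 0.25 in KO antimiR-21 against HET PBS (7 of 8, all loci -0.002). The comparisons share libraries, and the members were chosen with these results known, so nothing is read from the counts.

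**Figure D3:**
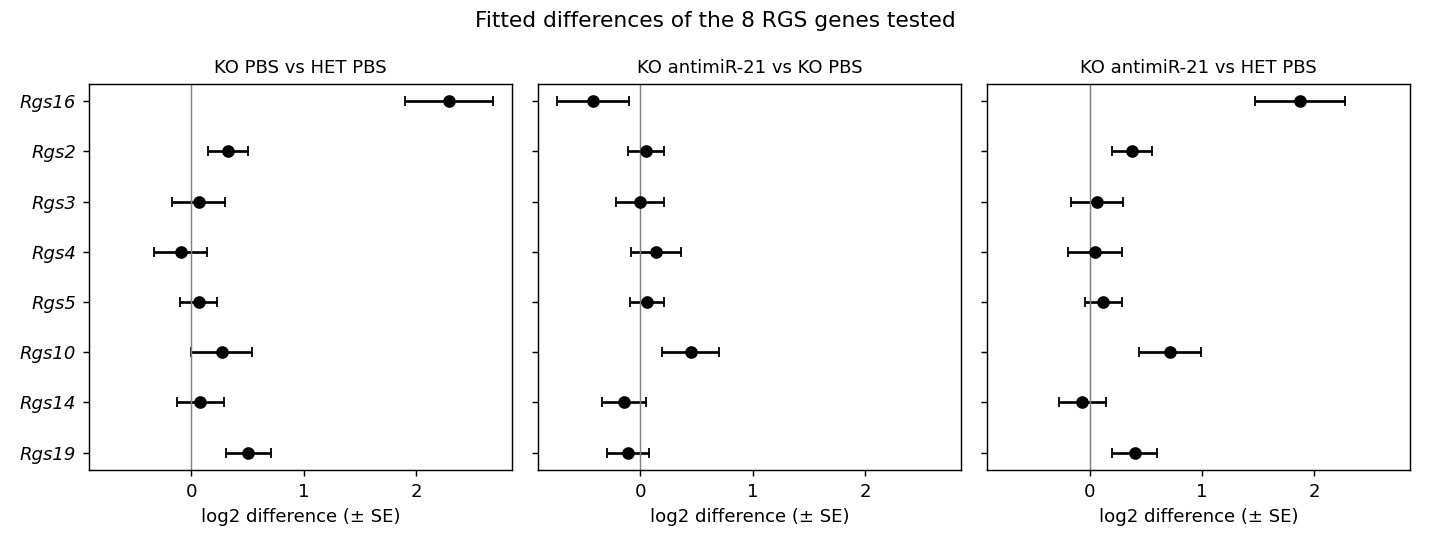
Fitted log2 differences (points) with their SE (bars) of the 8 RGS genes that passed the low-count filter, for KO PBS against HET PBS, KO antimiR-21 against KO PBS and KO antimiR-21 against HET PBS. Rgs16 lies at 2.29, -0.42 and 1.87, and the other 7 lie between -0.15 and 0.72.

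The members also differed by the presence of Y-linked reads, a measure on which the set was not chosen. This status was itself taken up because earlier results of these data had it as their largest source of variation. With that status as a term beside the groups, 3 members were lower where Y-linked reads were present (5 libraries against 6) and 1 was higher, at an edgeR adjusted p under 0.05. That is 4 of 8 tested, beside 17.9% of all loci (6.85% lower and 11.1% higher). Rgs3 was at 11.1, 12.5 and 13.7 CPM (lowest, median and highest) with Y-linked reads and 15.7, 18.4 and 21.1 CPM without them, and the libraries did not overlap. Its fitted log2 difference was -0.58 (SE 0.0968, edgeR adjusted p = 0.00141). Rgs2 was at 20.2, 25.4 and 27.3 CPM with them and 28.3, 32.6 and 41.3 CPM without, again with no overlap, and differed by -0.38 (SE 0.0991, edgeR adjusted p = 0.0186). Libraries did not overlap for these 2 of 8 members, beside 4.14% of all loci lower and 12.3% in either direction.

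Rgs5 and Rgs14 overlapped slightly. Rgs5 averaged 38.7 ± 3.58 CPM with Y-linked reads (n = 5) and 48.8 ± 4.82 CPM without (n = 6), a log2 difference of -0.34 (SE 0.0912, edgeR adjusted p = 0.0225). Rgs14 went the other way, at 9.44 ± 0.901 CPM with and 7.19 ± 0.998 CPM without, a difference of 0.43 (SE 0.130, edgeR adjusted p = 0.0374). The other 4 tested members did not pass: the differences were -0.67 (SE 0.256) for Rgs16, -0.42 (SE 0.153) for Rgs4, -0.36 (SE 0.134) for Rgs19 and -0.20 (SE 0.219) for Rgs10. Signs held in all 19 alternative fits for each of the 8 genes. Rgs3 passed in 18 of 19, the exception being the fit with the replicate number as a block, a number partly aligned with Y-linked status. Without KO PBS replicate 3, or without HET PBS replicate 1, Rgs3 alone passed, and without HET PBS replicate 2 Rgs2 and Rgs3 did. Rgs14 also lost the call without KO antimiR-21 replicate 1, KO antimiR-21 replicate 4 or KO PBS replicate 1, and Rgs2 without KO antimiR-21 replicate 4, where Rgs4 passed.

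**Figure D4:**
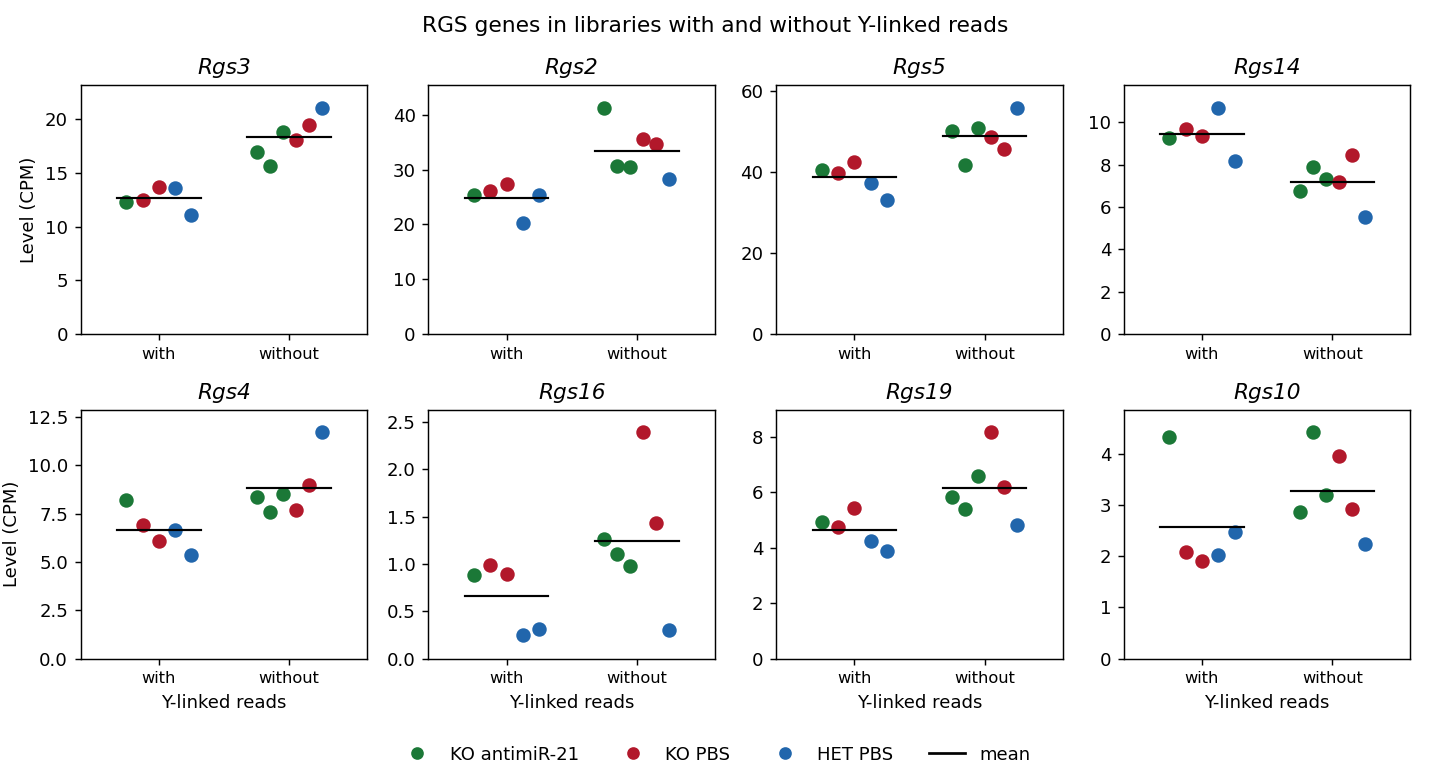
Level in CPM (each axis from 0) of the 8 tested RGS genes in the 5 libraries with and the 6 without Y-linked reads, coloured by group, with bars for means. Rgs3 and Rgs2 do not overlap between the sets, and Rgs14 averages 9.44 CPM with Y-linked reads and 7.19 CPM without.

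Of all loci, 6.85% were lower and 11.1% higher by this status, and the counts of cell type markers stand beside that. Of 9 podocyte markers, 7 were lower with Y-linked reads (edgeR adjusted p under 0.05), and the sum of the list was 770 to 947 CPM with Y-linked reads and 911 to 1170 CPM without. Of 14 pericyte, mesangial and smooth muscle loci, 4 of them joint, 2 were higher and 1 lower, with a median of -0.33 and 3 of 14 positive. Of 16 macrophage loci, 2 were lower (Cx3cr1 and Aif1), with a median of -0.40. Their part in the RGS differences was not tested.

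Among 11 other RGS genes, 5 passed the low-count filter and 0 were called between groups. The 3 with the smallest p between KO PBS and HET PBS were Rgs11 (-0.20, SE 0.233), Rgs7 (-0.14, SE 0.256) and Rgs12 (-0.06, SE 0.125). With Y-linked reads Rgs12 was higher, at 27.1 ± 0.712 CPM with and 22.5 ± 1.34 CPM without (0.27, SE 0.0712, edgeR adjusted p = 0.0204), and Rgs6 was lower (-0.30, SE 0.0946, edgeR adjusted p = 0.0483). Of the partners of these larger RGS proteins, 4 of 5 were tested and 0 called between groups. Of 15 receptor kinases and scaffolds with an RGS domain, 14 were tested and 0 called, and Grk5, a G protein-coupled receptor kinase, had the smallest p in KO PBS against HET PBS (21.9 ± 2.53 against 16.5 ± 4.04 CPM, log2 difference 0.40).

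The targets of RGS proteins are the G alpha subunits. Of 14 tested, 0 were called in each group comparison and 5 by Y-linked status, beside 17.9% of all loci (11.1% higher and 6.85% lower). Gna15, a Gq-class subunit of blood cells, had the smallest p in KO PBS against HET PBS at 0.791 ± 0.538 against 0.359 ± 0.0483 CPM. With Y-linked reads 3 were higher, namely Gna12 (0.34, SE 0.0549), Gnai1 (0.37, SE 0.0624) and Gna14 (0.76, SE 0.146). Gna15 was lower (-1.09, SE 0.288), as was Gnaz (-0.42, SE 0.135), whose adjusted p rounds to the threshold. Gnai2, the main Gi subunit of leukocytes, averaged 234 ± 19.3 CPM in KO antimiR-21, 243 ± 10.2 CPM in KO PBS and 230 ± 9.44 CPM in HET PBS. Of 13 loci tested in the beta and gamma list, 5 were joint and 0 were called between groups. The list took in the joint Gnb2l1/Trim41 locus, though Gnb2l1 encodes a beta-like scaffold and not a G protein subunit. Gng12 and the joint Gnb4/Mfn1 locus were higher with Y-linked reads (0.27, SE 0.0594 and 0.24, SE 0.0656).

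Of 35 tested receptors that couple to Gi or Gq, 0 were called between groups. In KO PBS against HET PBS 27 of 35 had positive differences, with a median log2 of 0.33 beside -0.02 over all loci, and 7 were higher and 0 lower at an unadjusted p under 0.05, beside 6.94% of all loci in either direction. Among those with the smallest p were Npy6r, a neuropeptide Y receptor gene (4.69 ± 1.13 against 1.22 ± 0.168 CPM), and F2r, the thrombin receptor (67.5 ± 11.4 against 44.8 ± 12.1 CPM).

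Other gene groups varied among the same libraries. Immediate early genes summed to 347 to 433 CPM in KO antimiR-21, 314 to 426 CPM in KO PBS and 252 to 363 CPM in HET PBS, with 0 of 18 at 0. Of 17 tested, 0 were called and 15 were positive in KO PBS against HET PBS (median 0.62), with Egr2 at 1.86 ± 1.11 against 0.247 ± 0.107 CPM. Macrophage markers summed to 441 to 480 CPM in KO antimiR-21, 400 to 564 CPM in KO PBS and 322 to 401 CPM in HET PBS, with 0 of 16 at 0, and 0 were called and 16 of 16 positive (median 0.65). A large part of each sum was the joint Csf1r/Hmgxb3 locus, whose reads cannot be given to Csf1r alone. That locus was at 173 to 211 CPM in KO antimiR-21, 193 to 225 CPM in KO PBS and 203 to 218 CPM in HET PBS. Fcgr1 was likewise joint with Hist2h2bb. Clock genes, 2 of 13 in joint loci, summed to 1180 to 1930 CPM in KO antimiR-21, 929 to 1170 CPM in KO PBS and 1130 to 1760 CPM in HET PBS, with 0 of 13 called. In KO PBS against HET PBS 3 of 13 were positive (median -0.53). At an edgeR unadjusted p under 0.05, 7 were lower and 0 higher there, beside 6.94% of all loci. In KO antimiR-21 against KO PBS 10 of 13 were positive (median 0.66), with 7 higher and 2 lower at that p, beside 8.21%. The clock gene Arntl varied within groups, at 4.25 to 18.9 CPM in KO antimiR-21, 19.1 to 30.6 CPM in KO PBS and 3.55 to 23.7 CPM in HET PBS. Every KO antimiR-21 value lay below every KO PBS value (4.28% of all loci did not overlap there), opposite to the median of the list. Lymphocyte markers, with at most 1 of 16 at 0, summed to 14.6 to 21.7 CPM in KO antimiR-21, 11.9 to 24.7 CPM in KO PBS and 9.35 to 17.9 CPM in HET PBS. Their part in the levels of Rgs16, Rgs10 and Rgs1 was not tested.

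Across the 11 libraries, the loci whose log2 CPM followed Rgs16 most closely among 12404 of at least 1 CPM were Cd44, a hyaluronan receptor (Pearson r = 0.961), Timp1, an inhibitor of matrix proteases (0.956), Tyro3, a receptor kinase (0.937), the joint Ppp4r4/Serpina10 locus (0.933) and Socs3, an inhibitor of cytokine signals (0.931). Socs3 averaged 8.50 CPM in KO antimiR-21, 11.6 CPM in KO PBS and 2.26 CPM in HET PBS. Rgs1 was followed by Klf4 (0.959), Grhl1 (0.942) and 2010300C02Rik (0.934), then Agap2 and Map4k1 (0.921 each). Rgs2 was followed by Zfp773 (0.946), an unnamed joint locus (0.928), Galnt12 (0.927), Tfpi (0.917) and Cap2 (0.912). Among the loci that followed Rgs5 were Blnk (0.960), Mmgt2 (0.948), Epcam (0.942) and Efnb1 (0.933). All points share the groups and the Y-linked status, so these are descriptions with no test, and for Rgs1 they rest on fewer than 10 counts in each library.

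A 7-base match to the miR-21 seed (ATAAGCT) was sought in the longest annotated 3′ UTR of each gene. It was present in 1 of 10 members, Rgs5, and in 7.49% of 21166 genes. Rgs5 averaged 45.8 ± 5.43 CPM with antimiR-21 and 44.1 ± 3.80 CPM with PBS in the knockouts (n = 4 each), a log2 difference of 0.06 (SE 0.151). Its groups overlapped.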

How the data were processed

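Libraries were made with TruSeq RNA v2, per the labels' protocols. Per the submitters' processing notes, build mm10 was used with STAR, SAMtools, limma, FastQC and HTSeq 0.5.4p5. Sources used here give neither annotation nor counting settings. The deposited files hold estimated counts per gene, in steps of 0.5 (47.4% of values above 0 were not whole), and a deposited log2 matrix of the authors served only as an alternative. Names with identical counts in all 11 libraries, and at least 50 counts over them, were joined (1513 joint loci). After rounding, edgeR 4.0.16 (R 4.3.3) was run with filterByExpr (14380 loci), TMM, glmQLFit with robust estimation on all 3 groups, two-sided, Benjamini-Hochberg adjusted at 0.05. The scripts were tested on simulated data. A separate fit added a term for Ddx3y above 5 CPM. Each SE of a fitted difference was derived as its size divided by the square root of the quasi-likelihood F statistic. Levels use unrounded counts. This was chosen after rounding had been seen to decide whether 1 value stood apart, as the closing section states. DESeq2 1.42.0 and limma 3.58.1 were alternatives, as were other scalings, no filter, rows not joined, a replicate block, only the groups compared, and leaving out each library. All 10 members are named. Of each other list, genes past the threshold or up to 3 with the smallest p in KO PBS against HET PBS could be named, and other genes of a list were named after their values were seen: Arntl, Gnai2 and those that differ by Y-linked status. Some genes that these rules take are not reported here. Likeness is the Pearson correlation of log2 CPM (prior count 2). The members, lists and tests were chosen with earlier results of these data known.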

Additional observations from a re-analysis of the deposited data

How the results depend on the processing

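Between groups the count of members called stayed at 0 in each alternative but DESeq2, which called 1 (Rgs16) in KO PBS against HET PBS and 1 (Rgs16) in KO antimiR-21 against HET PBS, from values that chose this gene and so no test of it, and it ranged from 0 to 0 when 1 library was left out. Over 19324 loci DESeq2 called 73 higher and 9 lower in KO PBS against HET PBS (0.424%). It called 79 and 46 in KO antimiR-21 against KO PBS (0.647%), and 66 and 9 in KO antimiR-21 against HET PBS (0.388%). Of 14380 loci, edgeR called 0, 0 and 1 in these comparisons. The 19324 loci include any that DESeq2's own filter leaves without an adjusted p, so the shares of the 2 tools have unlike bases. The log2 difference of Rgs16 ran from 1.92 to 2.46 in KO PBS against HET PBS and from -0.59 to -0.05 in KO antimiR-21 against KO PBS. For Y-linked status the count of 4 members ranged from 1 to 4 when 1 library was left out. With a replicate block it was 0, and 403 loci were higher and 150 lower in place of 1591 and 985. Libraries numbered 1 were all without Y-linked reads and those numbered 4 all with them, while numbers 2 and 3 were mixed. The block therefore takes up part of that contrast, and the status cannot be fully told apart from the replicate number. Same-numbered libraries did not all deviate together (10 pairs, correlation -0.446 to 0.631, 6 over 0.1). The pairs over 0.1 were those of like Y-linked status and the rest were of unlike status. That check therefore follows the status and cannot speak for or against pairing. The labels give no shared litter or batch, so the numbers were not taken as pairs. The block changed no count of members between groups. Upper quartile scaling called 3 members, and 1253 loci higher and 1365 lower. The cause was not tested. No level in 20 groups of 4 stood far from the others. With counts rounded to whole numbers, a setting added after seeing the data, 1 did: Rgs1 in KO PBS replicate 2, where a count of 4.5 became 4 and gave 0.2 CPM (gap over range 0.852 against a critical value of 0.829). Depth limits Rgs1, Rgs18 and, in HET PBS, Rgs16.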

Other observations

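Of 35 tested receptors that couple to Gi or Gq, 5 were lower where Y-linked reads were present (5 libraries against 6, edgeR adjusted p under 0.05), beside 6.85% of all loci lower and 17.9% called in either direction. They were F2rl1, a protease-activated receptor (log2 difference -0.35, SE 0.0851), Cx3cr1, the fractalkine receptor of macrophages (-0.57, SE 0.170), P2ry2, a nucleotide receptor (-0.50, SE 0.156), Ednra, the endothelin A receptor (-0.54, SE 0.169), and Adra2a, an adrenergic receptor coupled to Gi (-0.89, SE 0.281). None was higher (0 of 35). Adrbk2, a receptor kinase with an RGS domain, was lower (-0.39, SE 0.101) and Arrb1, which encodes an arrestin that ends receptor signals, was higher (0.26, SE 0.0788). These genes were named after their values were seen.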
